A study of Mus musculus with 3 samples.

Results

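The comparison set cultures after 21 days of osteogenic induction against cultures after 3 days, that is, late maturation against early induction. It used 2 of the 3 arrays of the series, with 1 array for each day, chosen by their titles. Of 20275 genes with a named probe, 12736 were measured on both arrays, 683 were well above background on the day 21 array only, 381 on the day 3 array only, and 6475 on neither, each gene read by its brightest probe. Both groups were primary mesenchymal stem cells (MSCs) from the bone marrow of male mice aged 8 weeks, kept in αMEM with serum and antibiotics and induced with ascorbic acid at 50 µg/mL together with β-glycerophosphate at 10 mM. Uninduced MSCs at day 0, the third array, are shown as a level beside each gene. The labels name no genotype, strain or number of animals, and no cell sorting. There were no replicates, so no difference has a replicate check and none was tested.

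Bone marrow MSCs are stromal progenitors of bone, cartilage and fat. In the osteoblast lineage, Runx2 and Sp7 set the fate, the alkaline phosphatase Alpl and type I collagen follow, and genes for mineral-binding matrix proteins such as Ibsp, Bglap and Dmp1 come on as the matrix mineralises. Ascorbic acid is a cofactor of collagen hydroxylation, and β-glycerophosphate is a source of phosphate. The adipocyte lineage shares the same progenitors and is driven by Pparg and Cebpa, which switch on genes of fatty acid uptake, triglyceride synthesis and the lipid droplet.

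A level below is the log2 processed intensity minus the array's 75th percentile, so a level of 0 is that percentile, and a difference is day 21 minus day 3 on the log2 scale. Where 3 levels of a gene are given without days, they are those at day 0, day 3 and day 21. Levels are compared between arrays for 1 gene and not between genes, except in the summed levels of a list. A summed level adds the linear levels of all members with a probe, also those below background. It is therefore weighted to the brightest probes. The number after ± is the SD of a difference by the scanner software's error model, with a median of 0.20. Where a probe had several spots, their errors were combined as independent. This makes ± smaller than for a probe with 1 spot and is no measured gain in precision. Among 261 bright probes printed 10 times on each array, the SD of the difference between spots was 0.099. Neither includes the variation between cultures or animals. A gene is called higher or lower at a difference of at least 2-fold, a rule of size. By this rule 987 of the 12736 measured genes (7.75%) were higher at day 21 and 906 (7.11%) were lower. The counts of calls in each list below are to be read beside these shares. Among the genes above background on 1 array only, 254 of 683 (37.2%) were at least 2-fold higher at day 21 by a lower bound, and 231 of 381 (60.6%) were at least 2-fold lower. The median difference was -0.10. The call rule has no natural edge: the nearest genes on either side of the higher threshold differed by 1.0004 and 0.9997.

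The spread was wider upward than downward. At 4-fold, 279 genes were higher and 143 lower. At 8-fold the counts were 94 and 12, and at 32-fold they were 15 and 0. The share of higher genes among all calls, 52.1%, moved with the scaling: it was 72.5% when the 75th percentile was taken over spots well above background, which shifted the median difference by 0.22, and 77.7% with scaling on the spike-in controls, which shifted it by 0.31. Quantile normalisation gave 60.0%. Every difference below is relative to the main scaling. Day 0 and day 21 were hybridised on 1 slide and read in 1 scan, and day 3 alone on the second slide and scan, so slide, scan and day cannot be told apart in this comparison.

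**Figure D1:**
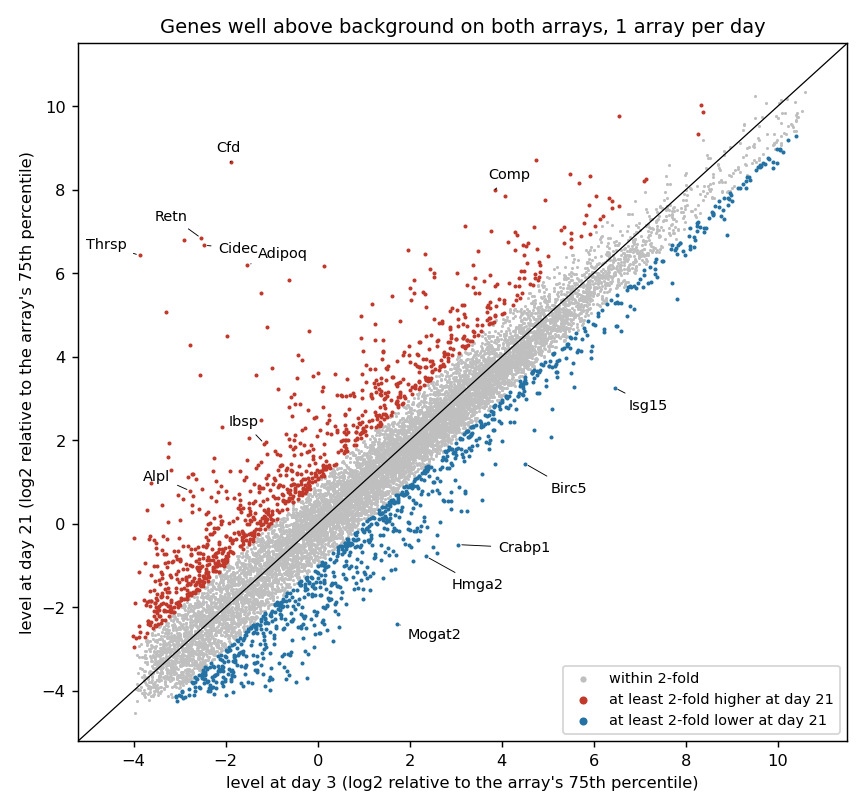
Each point is 1 of the 12736 genes measured on both arrays, with its level at day 3 on the horizontal axis and at day 21 on the vertical axis, both log2 relative to the array's 75th percentile. Points at least 2-fold above the diagonal are red and those at least 2-fold below it are blue. Cfd, Thrsp, Retn, Cidec and Adipoq are named far above the diagonal, and Mogat2 and Crabp1 lie farthest below it.

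The promoters of 3 groups of genes described below were read from RefSeq for 250 bases before to 50 after each transcript start (GRCm38.p6). Of the 30 genes of the mitosis list, 27 had a promoter in that table. On either strand, 23 of the 27 (85.2%) held, in at least 1 window, a cell cycle homology region (CHR, the letters TTTGAA or TTTAAA), against 30.6% of 27025 genes. A CCAAT box (CCAAT) stood in 21 of them (77.8%), against 41.1% of all genes. None of the 27 held the E2F-like letters TTCCCGCC, TTTCCCGC or TTTGGCGC, which 3.69% of all genes held. Of the 35 interferon-stimulated genes 24 had a promoter there, and of these 17 (70.8%) held the interferon response element core AAANNGAAA, against 12.1% of all genes. Of 46 adipocyte genes with a promoter, among the 58 of the 3 lipid lists, 2 (4.35%) held the PPAR element core GGTCANAGG, against 2.02%. These are matches of letters and not measured binding. The CCAAT letters can overlap themselves on the 2 strands, as they do once in Ube2c.

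Windows of 250 bases before the start are printed for a pair of genes from each group, to show how the letters lie; they were chosen because they hold them. Capitals mark matches of that group's motifs on either strand. Plk1, the mitotic polo-like kinase, is at chr7:122159185-122159434 on the plus strand, and Ube2c, the ubiquitin-conjugating enzyme of the anaphase-promoting complex, is at chr2:164769679-164769928 on the plus strand. Isg15, a ubiquitin-like interferon-induced protein, is at chr4:156200819-156201068 on the minus strand, and Ifit1, an interferon-induced RNA-binding protein, is at chr19:34640639-34640888 on the plus strand. Adig, adipogenin, is at chr2:158502362-158502611 on the plus strand, and Aqp7, a glycerol channel, is at chr4:41048137-41048386 on the minus strand; these were the adipocyte genes that held the PPAR core.
Plk1: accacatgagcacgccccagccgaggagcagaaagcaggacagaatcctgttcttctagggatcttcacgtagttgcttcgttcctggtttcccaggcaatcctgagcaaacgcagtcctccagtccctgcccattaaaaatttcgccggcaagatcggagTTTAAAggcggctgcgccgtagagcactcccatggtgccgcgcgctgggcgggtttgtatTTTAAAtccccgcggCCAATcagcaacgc
Ube2c: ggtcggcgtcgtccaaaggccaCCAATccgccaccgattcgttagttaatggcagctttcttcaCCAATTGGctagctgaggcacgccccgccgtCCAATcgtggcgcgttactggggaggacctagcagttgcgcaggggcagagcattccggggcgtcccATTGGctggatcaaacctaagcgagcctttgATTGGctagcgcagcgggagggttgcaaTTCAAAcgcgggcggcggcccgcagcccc
Isg15: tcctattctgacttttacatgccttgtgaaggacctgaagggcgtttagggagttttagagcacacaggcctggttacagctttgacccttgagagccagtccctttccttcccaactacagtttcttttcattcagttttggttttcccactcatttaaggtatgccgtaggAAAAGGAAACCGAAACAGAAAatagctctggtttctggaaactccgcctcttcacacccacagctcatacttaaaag
Ifit1: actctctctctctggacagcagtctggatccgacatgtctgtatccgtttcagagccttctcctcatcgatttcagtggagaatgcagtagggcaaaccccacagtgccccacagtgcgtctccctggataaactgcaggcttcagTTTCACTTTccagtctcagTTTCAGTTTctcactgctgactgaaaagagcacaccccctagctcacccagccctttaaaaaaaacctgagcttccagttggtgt
Adig: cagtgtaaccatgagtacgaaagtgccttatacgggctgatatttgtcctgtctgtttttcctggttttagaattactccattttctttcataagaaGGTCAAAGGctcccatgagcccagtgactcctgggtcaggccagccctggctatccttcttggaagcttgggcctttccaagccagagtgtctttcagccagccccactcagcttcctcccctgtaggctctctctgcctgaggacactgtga
Aqp7: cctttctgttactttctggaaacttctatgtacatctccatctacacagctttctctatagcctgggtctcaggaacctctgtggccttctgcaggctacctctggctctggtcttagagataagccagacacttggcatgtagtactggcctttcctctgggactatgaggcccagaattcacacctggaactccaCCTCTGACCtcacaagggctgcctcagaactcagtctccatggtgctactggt
In Plk1 a CCAAT box begins 14 bases before the start and CHR letters begin 89 and 29 bases before it. Ube2c has CCAAT letters at 6 positions between 228 and 57 bases before the start, and CHR letters 29 bases before it. The 3 overlapping cores of Isg15 begin between 77 and 65 bases before the start, and the 2 cores of Ifit1 begin 104 and 85 bases before it. The single core of Adig begins 153 bases before the start and that of Aqp7 begins 53 bases before it.

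Genes of the mineralised matrix were higher at day 21 in part. Of 15 measured members of the mineral matrix list, 6 were higher and 2 lower, and their median difference was 0.68 (1.16 with quantile normalisation), against -0.10 over all measured genes. The 6 include Bglap2 and Bglap3, which are 1 signal counted as 2 genes. Alpl, which frees phosphate at the cell surface, was not above background at day 0 (-5.89), stood at -2.77 at day 3 and reached 0.78 at day 21. Its difference of 3.55 ± 0.27 is 11.7-fold. Ibsp, bone sialoprotein, stood at -6.09 at day 0, below background, -1.16 at day 3 and 1.92 at day 21, a difference of 3.07 ± 0.21 or 8.42-fold. Both were thus higher at each later time. In RNA from whole cultures, fewer cells of a type and less RNA per cell cannot be told apart, and the same holds for more cells and more RNA per cell.

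Omd, osteomodulin, a proteoglycan of bone, had levels of -1.86, 1.05 and 3.39 at days 0, 3 and 21, with a difference of 2.34 ± 0.20. Mepe, a phosphoglycoprotein of late osteoblasts and osteocytes, stood at -2.82, -2.42 and -0.32, with a difference of 2.10 ± 0.24. Mepe differed by less between day 0 and day 3 than between day 3 and day 21. Col11a2, a fibril-forming collagen chain, stood below background at day 0 (-3.84), at -1.48 at day 3 and at 0.22 at day 21, a difference of 1.70. Osteocalcin, the classic late osteoblast product, is read by near-identical probes for Bglap2 and Bglap3, whose signals cannot be told apart. Bglap2 stood at -1.41, 0.95 and 2.17 and differed by 1.22 ± 0.20, or 2.33-fold.

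Dmp1 and Phex were above background on the day 21 array only. Phex, an endopeptidase-like regulator of phosphate, stood at -5.27, -4.70 and -0.56 which makes it at least 11.3-fold higher. Dmp1, a mineral-nucleating matrix protein of early osteocytes, stood at -6.10, -4.36 and -2.40 and was at least 3.14-fold higher. Spp1, osteopontin, stood at 1.86, 3.60 and 4.60, and its difference of 0.998 ± 0.20 was just below the 2-fold line. The lower members included Car12, a carbonic anhydrase, at -2.06, -1.26 and -2.88. Over the list, the summed level was 1995 times the 75th percentile at day 0, 3036 at day 3 and 2870.0 at day 21. These sums follow the brightest members, and the members named above make up little of them. They do not show the course of a typical member.

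Of 16 measured members of the early osteoblast list, 2 were higher (Alpl and Bmp4) and 1 was lower (Msx2), with a median of 0.16; under the scalings on bright spots and on spike-ins 5 were higher and 0 lower, with medians of 0.38 and 0.47. Runx2 stood near the floor of detection at -3.20, -3.08 and -3.57, a difference of -0.49 ± 0.38. Sp7, the zinc finger factor downstream of Runx2, was not above background on any of the 3 arrays. Col1a1 was bright throughout, at 8.48, 8.55 and 8.01, a difference of -0.53 ± 0.20. Bmp4, a bone morphogenetic protein, stood at 2.81, 2.74 and 4.10 and was 2.57-fold higher. Msx2, a homeobox factor of osteoprogenitors, stood at 3.54, 1.74 and 0.62 and was 2.17-fold lower.

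Osteocyte genes and those of phosphate handling that were measured on both arrays had medians near 0. Of 9 measured osteocyte genes 2 were higher, 1 lower, and the median was 0.09. It became -0.13 with a stricter filter on dim probes and 0.55 with no background filter. Dmp1 and Phex, given above, also belong to this list but were above background at day 21 only. With bounds counted, the median of the list was 0.55. Fbln7, a cell-adhesion fibulin, stood at -2.37, -2.00 and 0.78, a difference of 2.78 ± 0.23. Cd44, the hyaluronan receptor, stood at 4.26, 3.01 and 1.64, a difference of -1.37. Sost, sclerostin, the Wnt inhibitor made by mature osteocytes, was not above background on any array. Among 8 measured genes of phosphate and pyrophosphate handling, whose median of -0.09 became 0.13 and 0.21 under the scalings on bright spots and on spike-ins, 1 gene, Alpl, was higher and 2 were lower, Fetub by -1.25 and Enpp3 by -1.06. The lower calls depended on the setting: 0 were lower with spike-in scaling or normexp, and 1 with the percentile over bright spots. With the stricter filter on dim probes, which left out Alpl, 0 of 5 were higher and 1 was lower. The phosphate importer Slc20a1 stood at 5.90, 3.34 and 2.48, with a difference of -0.86.

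**Figure D2:**
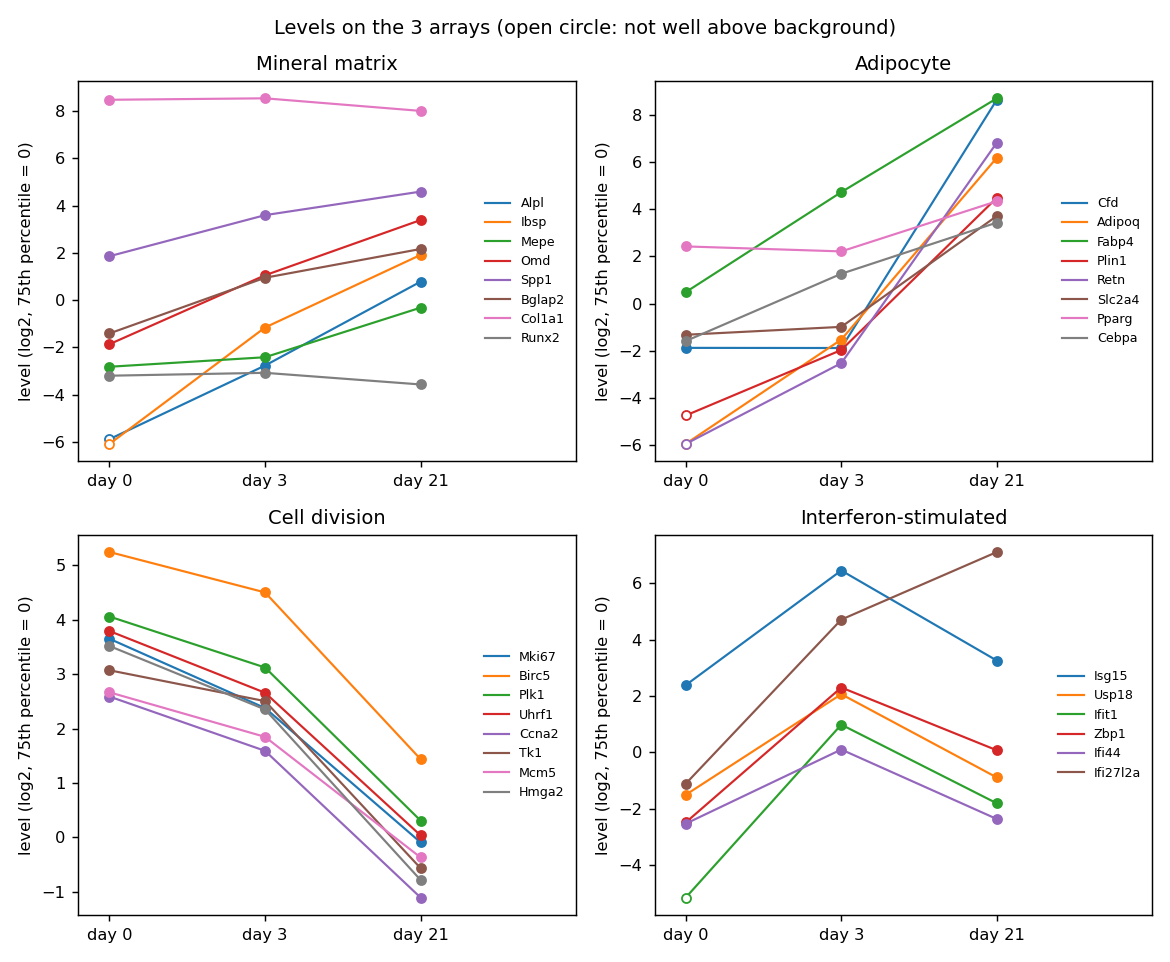
Levels of named genes on the 3 arrays, in 4 panels for mineral matrix, adipocyte, cell division and interferon-stimulated genes; the vertical axis is log2 relative to the array's 75th percentile, and an open circle is a level not well above background. Lines join the arrays of 1 gene and show single values with no error. Alpl and Ibsp are higher at each later day, Cfd is at -1.89 at day 3 and 8.66 at day 21, and Isg15 is highest at day 3.

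The largest differences of the comparison were in adipocyte genes. Of the 12 most raised genes with names, 8 belong to the lists for adipocyte secreted proteins, lipid droplets or lipid enzymes. These 3 lists hold 58 of the 20275 genes with a named probe. They were written with earlier results of these data known, so the 8 only describe the ranking. Cfd, adipsin, a complement protease secreted by fat cells, stood at -1.88 at day 0, -1.89 at day 3 and 8.66 at day 21. Its difference of 10.55 ± 0.21 is 1496-fold and the largest on these arrays. Thrsp, a nuclear protein of lipogenesis, stood at -6.32 (below background), -3.87 and 6.42, a difference of 10.29 ± 0.33. Retn, resistin, stood at -5.96 (below background), -2.53 and 6.84, a difference of 9.37 ± 0.24. All 3 were below the 75th percentile at day 3 and far above it at day 21.

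Cidec, which fuses lipid droplets, stood at -5.96 (below background), -2.47 and 6.67 and was 565-fold higher. Adig had levels of -3.45, -3.30 and 5.06 and was 329-fold higher. Adipoq, adiponectin, the hormone secreted by mature adipocytes, stood at -5.96 (below background), -1.53 and 6.20, a difference of 7.73 ± 0.21 or 212-fold. Plin1, the perilipin that coats the droplet of fat cells, stood at -4.75 (below background), -1.97 and 4.49 and was 88.4-fold higher. Rbp4, the retinol carrier, stood at -4.05 (below background), -2.55 and 3.57 and was 69.7-fold higher. The other 4 of the 12 were Car3, a carbonic anhydrase abundant in fat and muscle, with a difference of 9.68 ± 0.27, the apolipoprotein Apoc1 with 7.07 ± 0.25, Wfdc21 with 6.77 ± 0.07 and the cytochrome Cyp2f2 with 6.46 ± 0.21.

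Of 11 measured adipokines 9 were higher, 0 lower, and the median was 3.63; 7.75% of measured genes were higher in all. Of 11 measured lipid droplet proteins 6 were higher, 0 lower, and the median was 1.90; with normexp correction 5 were higher with a median of 0.93, and with the stricter filter on dim probes 3 of 8 with a median of 0.62. Of 25 measured enzymes and carriers of fatty acids and triglycerides 17 were higher, 1 lower, and the median was 1.92; the lower one passed under no other scaling. Another 4 enzymes, Cd36, Gpam, Pnpla3 and Pck1, and 3 droplet genes, Plin5, Cidea and Mogat1, were above background at day 21 only. The fatty acid transporter Cd36 stood at -6.28, -5.25 and 1.74 and was at least 55.4-fold higher.

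Fabp4, the fatty acid carrier of adipocytes, stood at 0.48, 4.73 and 8.72, so it was higher at each later day, with a difference of 3.98 ± 0.20 between day 21 and day 3. Gpd1, which makes glycerol 3-phosphate, stood at -5.79 (below background), -1.11 and 4.71 and was 56.5-fold higher. The lipases Lipe and Pnpla2 differed by 4.58 ± 0.32 and 3.75 ± 0.20. Acsl1, which activates long-chain fatty acids, stood at 1.61 at day 3 and 5.46 at day 21 and was 14.4-fold higher. The insulin-responsive glucose transporter Slc2a4 stood at -1.32, -0.99 and 3.72, a difference of 4.71 ± 0.08, and was the largest among 13 genes of insulin signalling, 4 of them higher.

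Of 17 measured transcription factors of adipogenesis, 7 were higher (4 with normexp background correction), 0 lower, and the median was 0.79. Pparg, the master regulator of fat cells, stood at 2.43, 2.22 and 4.35, a difference of 2.13 ± 0.07 or 4.38-fold. Cebpa, its partner, stood at -1.59, 1.27 and 3.44, a difference of 2.18 ± 0.20. Klf15 stood at -5.93 (below background), -1.25 and 0.45. The coactivator Ppargc1a differed by 2.15 ± 0.32 and the oxysterol receptor Nr1h3 by 1.54 ± 0.20. Pparg was thus not higher at day 3 than at day 0, whereas Cebpa and Nr1h3 were higher at each later time.

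Brown fat markers were mixed. Ucp1, the uncoupling protein that defines brown fat, was not above background on any array. Cox8b, a subunit of cytochrome oxidase in muscle and brown fat, stood at -5.82, -5.84 and 2.72 and was at least 109-fold higher. Dio2, which activates thyroid hormone, stood at -2.57, 0.11 and 3.27, a difference of 3.15 ± 0.20. In the joint list of fatty acid oxidation and brown fat genes, which includes Dio2, 17 were measured. Of these, 4 were higher, 0 lower, and the median was 0.37 (0.67 with spike-in scaling). Other genes above background at day 21 only had bounds of the same order: Cyp2e1 at least 144-fold, the amino acid transporter Slc36a2 at least 83.8-fold and Apoc3 at least 56.3-fold. The part of the adipocyte genes in the differences of other genes was not tested.

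Genes of cell division were lower at day 21, nearly throughout. Of 22 measured genes of mitosis, spindle and kinetochore, 21 were lower and 0 higher, with a median of -2.22; 7.11% of measured genes were lower in all. A further 6 (Bub1, Kif11, Kif23, Kif2c, Ttk and Nek2) were above background at day 3 only. The summed level of the list was 256 times the 75th percentile at day 0, 136 at day 3 and 48.8 at day 21, so it was lower at each later time. Mki67, a marker of cycling cells, stood at 3.65, 2.38 and -0.09, a difference of -2.47 ± 0.20 or 5.54-fold lower. Birc5, survivin, of the chromosomal passenger complex, stood at 5.25, 4.50 and 1.44, a difference of -3.07 ± 0.20.

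Plk1, whose promoter is printed above, stood at 4.06, 3.12 and 0.31, a difference of -2.82. Ube2c stood at 4.18, 2.90 and 0.36, a difference of -2.55. Bub1, the spindle checkpoint kinase, stood at 0.39, -1.07 and -4.78 (below background) and was at least 11-fold lower. Of the 12 most lowered genes, 3 outside the list also serve mitosis: Ska1, of the kinetochore, at -3.34, the mitotic kinase Melk at -3.14, and Aunip, a partner of Aurora A, at -3.48. The linker histone H1f5, whose family is near-identical in sequence, differed by -3.29.

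Genes of DNA replication were lower too. Of 28 measured genes 16 were lower and 0 higher, with a median of -1.20. Tk1, thymidine kinase, stood at 3.07, 2.51 and -0.57, a difference of -3.07 ± 0.21. Ccna2, the cyclin of S phase and entry to mitosis, stood at 2.59, 1.59 and -1.11, and the helicase subunit Mcm5 at 2.67, 1.85 and -0.37. Uhrf1, which keeps DNA methylation through replication, differed by -2.62. The repressor E2f8 was above background at day 3 only and was at least 11.3-fold lower. For E2f7 the probes disagreed: the brightest was above background at day 3 only, with a bound of 11-fold, and another was bright on both arrays with a difference of -0.55. Of 18 inhibitors of the cell cycle, D cyclins and arrest genes, 3 were higher and 1 lower. Cdkn2c, the inhibitor p18, stood at -0.37, 0.20 and 2.18, and the growth arrest gene Gas1 at -2.27, 2.59 and 4.25, its probes ranging from 0.99 to 2.19 in their difference.

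Interferon-stimulated genes were lower at day 21 than at day 3 and, by their median, still above day 0. Of 30 measured, 17 were lower and 1 higher, with a median of -1.28. Over 25 members measured in each case, the median difference from day 0 was 3.12 on the day 3 array and 1.43 on the day 21 array; these comparisons share arrays with the main one. Isg15 stood at 2.38, 6.45 and 3.26, a difference of -3.20 ± 0.20 or 9.18-fold lower. Usp18, which removes Isg15 from proteins, stood at -1.51, 2.06 and -0.89, a difference of -2.96. Ifit1 stood at -5.16 (below background), 0.98 and -1.81, a difference of -2.79. All 3 were highest on the day 3 array, the one alone on its slide.

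Ifi44 stood at -2.53, 0.10 and -2.37, and Zbp1, a sensor of Z-form nucleic acid, at -2.49, 2.30 and 0.07. Rsad2, viperin, was above background at day 3 only and was at least 2.36-fold lower at day 21. The 1 member at least 2-fold higher was Ifi27l2a, at -1.11, 4.71 and 7.11, higher by 2.40 ± 0.20. Genes of MHC class I and the immunoproteasome, which interferon also induces, did not share the lower levels: of 14 measured, 3 were higher, 0 lower, and the median was 0.38 (0.69 with spike-in scaling). H2-Q4 stood at 6.28, 4.77 and 6.57, and H2-K1 at 2.87, 4.44 and 5.52; class I genes are close in sequence and their probes may read each other.

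Complement and acute-phase genes were higher. Of 18 measured, 13 were higher, 0 lower, and the median was 1.94, and the list shares Cfd and Hp with the adipokines. C3, the central complement protein, stood at -0.69, 3.20 and 7.13, a difference of 3.93 ± 0.20. C4b stood at -3.24, 2.34 and 5.50, and Cfb, the factor that forms the alternative convertase, at -6.00 (below background), 1.42 and 4.15. Serping1, the C1 inhibitor, stood at -0.53, 4.95 and 7.75, and Hp, haptoglobin, at -4.07 (below background), 6.55 and 9.77. Each of these 5 was also higher at day 3 than at day 0. Orm1, orosomucoid, whose paralogs are near-identical, was above background at day 21 only, at least 37.1-fold higher.

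Chemokines and interleukins went both ways, 6 higher and 7 lower of 21 measured, with a median of 0.06. Ptgs2, the inducible cyclooxygenase, stood at 3.48, -0.68 and -3.72, a difference of -3.04 ± 0.10. Il6 stood at 1.16, -0.36 and -2.45 and the monocyte chemokine Ccl2 at 4.93, 4.01 and 1.99, both lower at each later time. Il33 stood at -6.14 (below background), -1.54 and 1.51, a difference of 3.06. Cxcl12, the niche chemokine of marrow stroma, stood at 6.02, 5.92 and 8.33, a difference of 2.40. Cxcl13, which attracts B cells, differed by 2.67.

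Secreted Wnt antagonists and Wnt components were higher in part. Of 11 measured antagonists 6 were higher, 0 lower, and the median was 1.66; Sost, the osteocyte antagonist, was below background as given above. Sfrp2 stood at -4.55 (below background), 3.77 and 7.0, a difference of 3.23 ± 0.20. Sfrp1 stood at -0.69, 3.86 and 5.70. Apcdd1, Sfrp4, Frzb and Wif1 differed by 1.86, 2.02, 1.68 and 1.66. With normexp background correction 3 of the 11 were higher in place of 6, with a median of 0.72, and with the stricter filter 4 of 9, with a median of 0.29. Of 23 measured ligands, receptors and targets, 10 were higher, 0 lower, and the median was 0.69 (0.37 with normexp).

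Among those, Rspo1, a secreted agonist, stood at -2.51, -0.63 and 2.79, a difference of 3.42 ± 0.21, and its receptor Lgr5 at -3.39, -0.50 and 2.13, a difference of 2.63 ± 0.21. The receptor Fzd4 differed by 2.20, and Nkd1, a feedback inhibitor of the pathway, by 1.64. Lef1, the nuclear effector, was above background at day 3 only, at -0.51, -3.75 and -4.82, and was at least 1.72-fold lower.

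Among 33 measured genes of BMP, TGF-β and activin signalling, 7 were higher, 2 lower, and the median was 0.14. Chrdl1, a secreted BMP antagonist, stood at -5.54 (below background), -1.34 and 3.56, a difference of 4.90 ± 0.21 or 29.8-fold. The ligands Gdf10 and Bmp7 differed by 2.77 and 2.69. Gdf15, a stress-induced ligand, stood at 4.28, 1.82 and 0.31, a difference of -1.51. Of 12 measured genes of the IGF system 7 were higher, 0 lower, and the median was 1.23. With normexp 6 were higher and the median was 0.99, and with bounds counted the median was 0.75. Igfbp5, a binding protein abundant in bone, stood at 2.51, 3.48 and 6.53, a difference of 3.06, and the growth factor Igf2 stood at -5.10 (below background), -0.69 and 2.15, a difference of 2.85. Igfbp7 was above background at day 3 only and was at least 8.22-fold lower.

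Notch genes numbered 10 measured, 2 higher (20%) and 1 lower (10%), against 7.75% and 7.11% of all measured genes. The targets split: Heyl and Hey1 differed by 2.25 and 1.96, and Hes1 by -1.22. Genes of ERK feedback and the immediate early response were lower, 10 of 20 with 0 higher and a median of -1.01. Egr1, an immediate early factor, stood at 3.35, 3.58 and 0.56, a difference of -3.02 ± 0.20, and Fos stood at 1.41 at day 3 and -1.30 at day 21. Dusp6, the ERK phosphatase, stood at 2.80, 2.89 and 0.54, and Etv4 at 3.83, 2.17 and -0.38.

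The contractile and YAP target list was lower in 6 of 23 measured genes, higher in 0, with a median of -0.44; under the 3 other scalings 2 or 3 genes were lower, with medians of -0.22 to -0.13. Actg2, smooth muscle γ-actin, stood at 8.95, 6.59 and 4.61, a difference of -1.98, and Cnn1, calponin, at 8.45, 6.21 and 4.60. Acta2, smooth muscle α-actin, stood at 10.45, 9.31 and 8.21. All 3 were lower at each later day, and the summed level of the list was 6122 times the 75th percentile at day 0, 2240.4 at day 3 and 1248 at day 21. Hmga2, a chromatin protein of growing mesenchymal cells, stood at 3.52, 2.35 and -0.78, a difference of -3.14 ± 0.21.

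The extracellular matrix differed by class. Small leucine-rich proteoglycans, which regulate collagen fibril assembly, were higher in 9 of 14 measured genes and lower in 0, with a median of 1.37. With normexp 7 were higher and the median was 0.92. Lum, lumican, stood at 1.23, 4.14 and 6.73, a difference of 2.59. Ogn, osteoglycin, stood at 3.47, 5.69 and 8.16, and Epyc, epiphycan, at -2.85, -0.50 and 2.01. Each was higher at each later day. Kera was above background at day 21 only. Collagen chains as a class had a median of 0.10, with 6 of 22 higher and 1 lower. Col23a1 and Col8a2 differed by 2.42 and 2.19, Col14a1 stood at -2.31, 2.45 and 4.52, and Col7a1, of anchoring fibrils, differed by -1.57. Enzymes and chaperones of collagen had 1 higher and 3 lower of 26, with a median of 0.05 that was at -3.9e-05 with normexp correction.

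Among 28 measured matricellular and elastic fibre genes 6 were higher (21.4%) and 2 lower (7.14%), against 7.75% and 7.11% of all measured genes. Matn4, a matrilin, stood at -2.43, 2.09 and 5.52, a difference of 3.43. Of 24 measured matrix proteases and inhibitors 6 were higher and 2 lower. Adamts15, a proteoglycan-cleaving protease, stood at -5.96 (below background), 0.94 and 4.44, and Mmp13, the collagenase of late osteoblasts and hypertrophic cartilage, at -5.67 (below background), -0.52 and 1.63, a difference of 2.15. Plaur, the urokinase receptor, stood at 4.69, 1.98 and 0.02.

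Cartilage genes were higher in 8 of 17 measured, and lower in 1, with a median of 0.80. Snorc, a chondrocyte transmembrane proteoglycan, stood at -6.01 (below background), -3.23 and 1.93, a difference of 5.16 ± 0.29 or 35.7-fold. Comp, cartilage oligomeric matrix protein, stood at 1.33, 3.86 and 8.00, a difference of 4.14 ± 0.20. Cnmd, chondromodulin, stood at -6.28 (below background), 0.98 and 4.14, and Col9a2 at -1.74, 1.42 and 4.39. Sox9, the factor that drives chondrocyte fate, stood at 0.65, 2.13 and 1.88, a difference of -0.25 ± 0.07. Col10a1, the collagen of hypertrophic chondrocytes, stood at 0.07, -3.08 and -1.20. The part of cartilage-forming cells in these values was not tested.

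**Figure D3:**
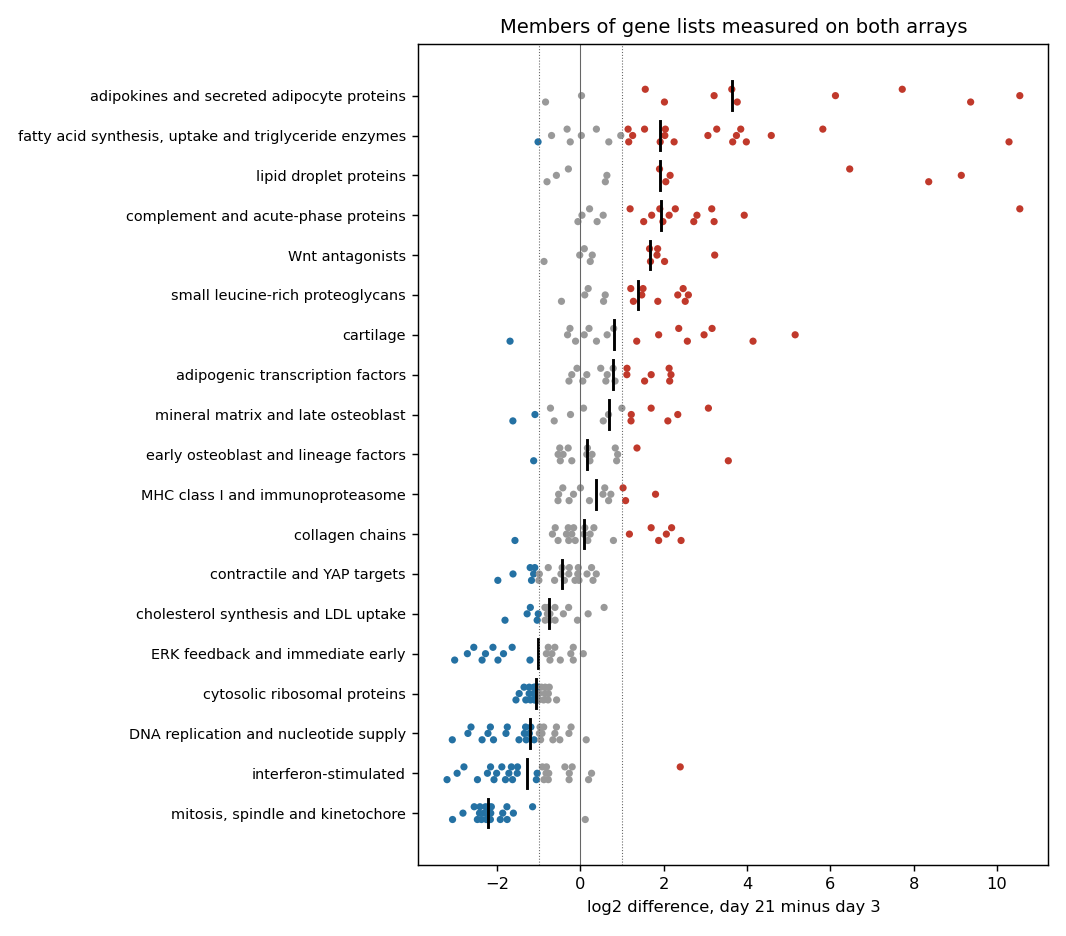
Each point is a measured member of a gene list, placed by its log2 difference, day 21 minus day 3; red points are at least 2-fold higher, blue points at least 2-fold lower, and the black bar is the list's median over genes, which are not replicates. Dotted lines mark 2-fold. Medians run from 3.63 for adipokines to -2.22 for mitosis; Ifi27l2a is the red point in the interferon row.

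Metabolic and stress genes shifted by less. The ATF4 and ER stress list had 5 of 24 lower, 0 higher and a median of -0.37 (-0.07 with spike-in scaling), and 3 or 4 lower under the other scalings and normexp; Psat1, of serine synthesis, stood at 5.82, 4.47 and 3.08, and the amino acid transporter Slc7a5 at 2.98, -0.11 and -1.45. Cholesterol synthesis genes had 5 of 18 lower and 0 higher with a median of -0.76 (-0.45 with spike-in scaling), and 1 to 3 lower under the other scalings and the background correction. Fdps, farnesyl diphosphate synthase, stood at 5.78, 5.95 and 4.14, a difference of -1.81 ± 0.20. Hypoxia and glycolysis genes had 2 higher and 3 lower of 19 (1 lower under the other scalings and normexp); their median of 0.08 was -0.02 with no background filter and -0.08 with the mean of all probes. Within it Egln3 and Pgk1 differed by -1.83 and -1.10, and Ndrg1 and Bnip3 by 1.51 and 1.32.

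Cytosolic ribosomal protein genes were lower in 18 of 28 measured genes, with differences from -1.54 to -0.57 and a median of -1.05. That count depended on the scaling: it was 6 with the percentile over bright spots, 4 with spike-in scaling and 1 with quantile normalisation, where the median was -0.25. All 28 lay in the brightest decile of measured genes. In that decile the median of all genes was -0.31, and 9.97% were lower and 5.18% higher. The part of brightness in the ribosomal values was not tested. Rps3 stood at 7.65, 7.98 and 6.44, and Rplp0, often used as a reference, at 10.36, 10.39 and 9.65. Respiratory chain genes had 0 higher and 0 lower of 24, and their median of -0.28 turned to 0.09 under quantile normalisation and 0.03 under spike-in scaling. Reference genes had a median of -0.26, which turned to 0.04 under spike-in scaling; Gapdh differed by -0.69, Actb by -0.67 and Ppia by -0.47.

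**Figure D4:**
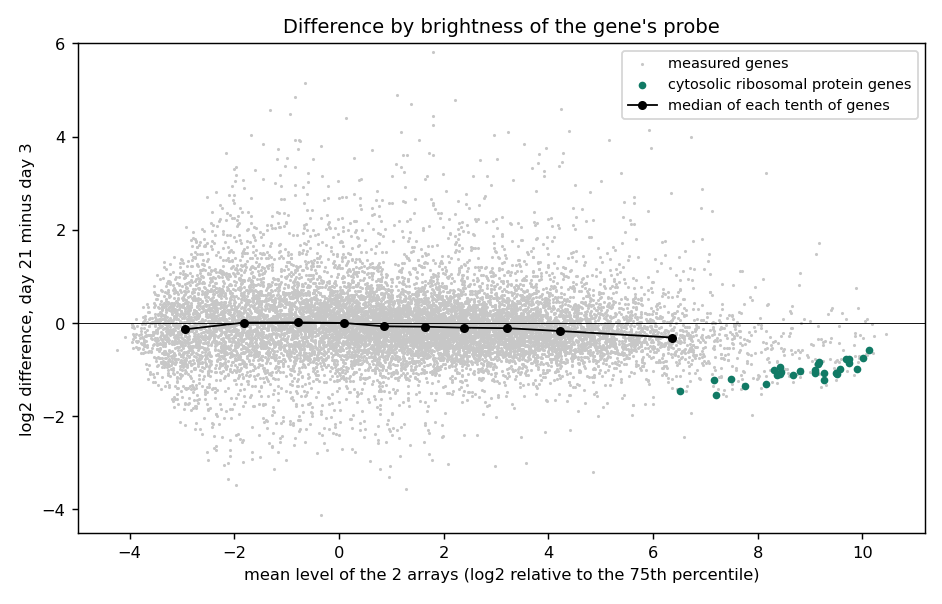
Each grey point is a measured gene, with the mean level of the 2 arrays on the horizontal axis and the log2 difference, day 21 minus day 3, on the vertical axis; black points join the medians of the deciles of genes, and green points are the 28 ribosomal protein genes. The vertical axis ends at 6, and 13 genes lie above it. The black line is at -0.13 in the dimmest decile, near 0 in the next 3 and at -0.31 in the brightest, where the green points lie below it.

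Genes responsive to glucocorticoid or of the circadian clock were higher in 8 of 16 measured and lower in 0, with a median of 0.96. The clock repressors Nr1d1 and Nr1d2 stood at 0.12, -1.73 and 0.37, and at -0.17, -2.13 and -0.61, so both were lowest at day 3. Tsc22d3, a glucocorticoid-induced leucine zipper, stood at 2.97, 5.83 and 7.39. Retinoid, sulfotransferase and cytochrome P450 genes were higher in 13 of 21 and lower in 1. The lower one was Crabp1, the cellular retinoic acid-binding protein, at 1.99, 3.05 and -0.50, a difference of -3.56 ± 0.20. Cyp26b1, which degrades retinoic acid, stood at 3.87, 2.52 and 5.90, and the oxygenase Fmo1 at -6.10 (below background), 2.54 and 6.0.

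The largest measured decrease was in Mogat2, a monoacylglycerol acyltransferase, at 3.28, 1.71 and -2.40, a difference of -4.12 ± 0.23, whereas 17 of 25 measured lipid enzymes were higher. Among genes above background at day 3 only, Mcpt8, a mast cell and basophil protease, was at least 16.7-fold lower, and Pkp1, a desmosomal plakophilin, at least 10.4-fold lower. Zar1, known from oocytes, was above background at day 3 alone among the 3 arrays and was at least 8.66-fold lower at day 21.

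Progenitor and stromal markers were split, 4 higher and 4 lower of 23 measured, with a median of 0.10. Nes, nestin, stood at 4.04, 1.14 and -0.40, and Cd200 at -1.01, 0.71 and 3.07. The stem cell factor Kitl differed by 1.56 and Angpt1 by 1.71. In the coupling to osteoclasts, 2 of 10 measured genes (20%) were higher, against 7.75% of all measured genes. These were Sema3e by 1.40 and Il34, a ligand of the CSF1 receptor, by 1.16. Tnfrsf11b, osteoprotegerin, stood at 2.96, 1.02 and 1.98, just short of 2-fold. Imprinted growth regulators were higher in 4 of 13, including Slc22a18 and Peg3 by 1.61 and 1.08, and Nnat differed by -0.83. Antioxidant genes were higher in 2 of 22 (Gpx3 by 1.42 and Sod3 by 1.30), or 9.09%, near the 7.75% of all measured genes. Up to 5 were higher under the other scalings. The 5 came with spike-in scaling, under which 1586 of all 12736 measured genes were higher. Lysosomal genes were higher in 0 of 19 with a median of 0.09. Hox genes had 0 calls of 15, and their median of -0.19 turned to 0.03 and 0.12 under the scalings on bright spots and on spike-ins.

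In 9 lists of markers of other cell types that marrow cultures can hold, 51 of 103 genes with a probe were below background on both arrays. The other genes of these lists were above background on at least 1 of these arrays. Over all genes with a named probe, 6475 of 20275 were below background on both. Of 18 macrophage markers with a probe, 10 were below background on both arrays, including Ptprc (CD45) and Adgre1 (F4/80), which define blood cells and macrophages. Above background were 7 at day 3 and 7 at day 21. The 6 measured had 0 calls and a median of 0.54; with spike-in scaling 3 were higher and the median was 0.84, with quantile normalisation 1 was higher, with normexp the median was 0.25, and with no background filter it was -0.22. The summed level of that list was 60.8, 55.1 and 88.0 times the 75th percentile at days 0, 3 and 21. Granulocyte, lymphocyte and osteoclast lists had 3, 3 and 7 measured members with 0 calls. The granulocyte genes S100a8 and Mmp8 were above background at day 21 only, at least 6.29-fold and at least 2.80-fold higher. The osteoclast median of -0.16 turned to 0.06 and 0.14 under the scalings on bright spots and on spike-ins. Erythroid and megakaryocyte markers had 0 members measured on both arrays.

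Of 11 endothelial markers with a probe, 6 were above background at day 3 and 6 at day 21. Among the 5 measured on both arrays 1 was higher, the factor Erg, by 1.36 ± 0.34, a call lost with normexp correction. Another 1 was above background at day 3 only and at least 2-fold lower at day 21. Below background on both arrays were 4, including Cdh5, the cadherin that defines endothelium. Among 7 measured Schwann and neural markers S100b, also known from chondrocytes, differed by 2.11 and the tubulin Tubb3 by -2.12. Skeletal muscle markers gave Actn3 by 1.53 and Acta1 by -1.70, and the list's median of 0.10 was below 0 with 4 of the alternatives. The epithelial keratin Krt19 stood at 2.66, 1.03 and -1.21. The summed level of the adipokine list was 6.12 times the 75th percentile at day 0, 131 at day 3 and 1809.7 at day 21, with 11 members above background at day 3 and 13 at day 21. Hp, also listed with the acute-phase genes, weighed most in the sums at day 3 and day 21. Adipoq, Retn, Rbp4 and Cfd were below the 75th percentile at day 3 and above it at day 21. The label of osteoblast at day 21 thus covers a culture whose RNA holds both mineral matrix and adipocyte transcripts.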

How the data were processed

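Total RNA of 3 groups (MSCs at day 0, osteogenic cultures at day 3 and day 21) was hybridised in Cy3 to 1 array each. Spot intensity in the deposited scanner files is linear; per the file headers it had its background subtracted and was detrended array by array, with no scaling between arrays. The headers give Agilent Feature Extraction 10.10.1.1, whereas the submitters' processing notes give version 12.0. The deposited value table held the same intensity, with a largest relative difference of 0, linear and not centred. No non-control spot was saturated.

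Log2 of the processed signal minus the array's 75th percentile over 59305 non-control spots was used (percentiles of 172.2, 174.6 and 190.7 in order of day). Outlier spots (115 at day 3, 146 at day 21) were left out and spots of a probe averaged. A probe counted as well above background when at least 50% of its spots were marked so. Of 55664 probes, 26749 matched 1 gene through unversioned RefSeq accessions (GRCm38.p6, names only) and 28915 stayed unnamed. A gene was read by its brightest probe over the 3 arrays, so 4 of the 683 genes seen at day 21 only and 8 of the 381 seen at day 3 only had another probe above background on the dim array; where a gene had 2 or more bright probes (3116 genes), the median SD between them was 0.17, and 0 genes had probes past 2-fold in opposite directions.

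Where only 1 array put a gene above background, the fold is a lower bound, taken against whichever was higher on the dim array, its own signal or the lowest signal well above background there. Scripts used Python 3.11.15, pandas 2.3.3 and, for the normexp alternative only, R 4.3.3 with limma 3.58.1. Known shifts were put into the day 3 levels of genes bright on both arrays, with the error model's noise only, and called by the same rule. That simulation checks the code and holds no variation between cultures, slides or scans. With 1 array a group no p-value was computed. The number of arrays limits the precision.

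The comparison, its 53 gene lists and the named genes were chosen with earlier results of these data known. Named are 18 markers whatever their value, the 12 most raised and 12 most lowered measured genes, the 6 largest bounds in each direction, up to 6 members of each list with the largest absolute difference, and members of interest for being below background. Other members seen on 1 array only were picked for the text with their values known. 1 gene that the rule names is not reported here. Alternatives were the percentile over bright spots, quantile and spike-in scaling, normexp, no filter and a stricter filter, the mean of all probes, the value table, other folds, and counting bounds.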

Additional observations from a re-analysis of the deposited data

Results flagged for a closer look

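Probes without a gene name lay outside the comparison of genes and carried differences of their own. Of 7774 such probes well above background on both arrays, 1259 (16.2%) were at least 2-fold lower at day 21 and 394 (5.07%) at least 2-fold higher, against 7.11% and 7.75% of named genes. Their differences ran from -3.98 to 5.07. They were singled out as signal in data that the comparison of genes does not use, and what they read was not analysed here.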

How the results depend on the processing

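All 210 named genes called at 2-fold kept their direction under every alternative in which they had a value. With the stricter filter 177 of them had a value, and all 177 still passed 2-fold. Under the alternatives that kept all 210, between 178 (normexp) and 210 still passed, with 189 under spike-in scaling. The count of higher genes, 987 in the main setting, was 1586 with spike-in scaling, 611 with normexp on median signals (added after seeing the files, since they hold no mean signal and the planned normexp on it was not run), 1792 with no background filter, 1940 at 1.5-fold and 279 at 4-fold. The count of lower genes, 906, was 525 with the percentile over bright spots, 455 with spike-in scaling, 466 with normexp, 1689 with no filter, 2493 at 1.5-fold and 143 at 4-fold. With bounds added, 1241 genes were higher and 1137 lower. In the order bright-spot percentile, spike-in scaling, the mineral matrix median of 0.68 became 0.90 and 0.98 (1.16 with quantile), the fatty acid and triglyceride enzyme median of 1.92 became 2.14 and 2.22 (1.46 with normexp), the mitosis median of -2.22 became -2.00 and -1.92 (-1.62 with normexp), and the interferon median of -1.28 became -1.06 and -0.98 (-1.0 with normexp, -1.51 with no filter and with the stricter filter). The ribosomal median of -1.05 became -0.84 and -0.75, and -0.25 with quantile normalisation. Among medians at least 1 error-model SD from 0, those that changed sign were of the respiratory chain (0.089 with quantile, 0.028 with spike-ins), macrophage markers (-0.22 with no filter) and reference genes (0.042 with spike-ins); lists with medians nearer 0 that also changed sign are named as such beside each list, and beyond the scaling shift itself the cause was not tested. The deposited value table gave the same counts. No paired analysis was possible because each group held 1 array. With 1 array a day, no array could be left out, and differences between cultures or animals are not covered. Signal over background limits genes near the floor, such as Runx2.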
